A study of Mus musculus with 6 samples.

Results

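The insulin and IGF signalling genes described here are 10 mouse genes taken by symbol: the growth factors Igf1 and Igf2, the receptors Igf1r and Insr, the receptor substrates Irs1 and Irs2, and the binding proteins Igfbp2, Igfbp4, Igfbp5 and Igfbp7. Their Ensembl identifiers were matched to a mouse gene name table, and all 10 were found among the 21006 genes measured. Messenger RNA was sequenced from the prefrontal cortex, the front part of the cortex, of wild type male C57BL/6 mice, aged 18 months by their age label. PND animals, which model postoperative neurocognitive disorder, were anesthetized with 1.5% isoflurane and underwent an exploratory laparotomy, an opening and inspection of the abdomen. The control group, CON, had neither anesthesia nor operation, so the effects of the anesthetic and of the operation cannot be told apart. Each group held 3 animals with 1 library each. Animals of both groups had been through the same behavioural tests and, by the study's methods, were deeply anesthetized with isoflurane and perfused with saline before the tissue was taken. The question of the comparison was which of these transcripts differed in level after anesthesia and surgery.

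Insulin, IGF1 and IGF2 bind receptor tyrosine kinases on the cell surface, and the activated receptors phosphorylate the IRS proteins. These dock PI3 kinase, which starts the AKT and mTOR branch that controls growth, protein synthesis and glucose use. The IGF binding proteins hold the growth factors outside the cell and set how much of them reaches a receptor. In the brain the pathway is known for its part in neuron growth and survival, myelination and synaptic plasticity.

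Levels are given as FPKM, that is, fragments per kilobase of a gene's exons corrected for library depth, so that genes can be compared. The depth, estimated from the steps of the lowest values, lay between 7201377 and 9393071 fragments per library, and the mitochondrial genes took 30.4% to 38.8% of all FPKM. Markers were set beside the labelled tissue. Slc17a7, a glutamate transporter of cortical excitatory neurons, lay between 23.6 FPKM in CON replicate 1 and 73.8 FPKM in CON replicate 2. Ttr, the defining transcript of choroid plexus, was at most 0.207 FPKM. These markers cannot tell the prefrontal cortex from the rest of the cortex.

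The sequences shown are the 250 bases upstream of the start of 3 members, since the receptor substrates shared a motif arrangement and Igfbp7 was the 1 member whose groups did not overlap. They come from RefSeq annotation of GRCm38.p6, all 3 on the minus strand and written 5′ to 3′, at chr1:82291440-82291689 for Irs1, chr8:11008930-11009179 for Irs2 and chr5:77408046-77408295 for Igfbp7. Capitals mark matches on either strand to an E-box (CACGTG), an insulin response element (CAAAACA, which reads TGTTTTG on the other strand) or a GC box (GGGCGG).
Irs1: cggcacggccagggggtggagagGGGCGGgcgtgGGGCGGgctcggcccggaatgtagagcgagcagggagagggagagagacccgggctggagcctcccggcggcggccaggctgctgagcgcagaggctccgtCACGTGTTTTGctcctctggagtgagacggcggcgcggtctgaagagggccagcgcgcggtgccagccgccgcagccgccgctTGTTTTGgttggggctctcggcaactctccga
Irs2: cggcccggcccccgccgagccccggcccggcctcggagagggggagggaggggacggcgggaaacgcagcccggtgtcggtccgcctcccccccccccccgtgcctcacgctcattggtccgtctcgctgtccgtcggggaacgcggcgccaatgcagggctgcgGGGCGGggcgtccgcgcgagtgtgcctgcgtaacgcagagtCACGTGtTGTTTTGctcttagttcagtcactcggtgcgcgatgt
Igfbp7: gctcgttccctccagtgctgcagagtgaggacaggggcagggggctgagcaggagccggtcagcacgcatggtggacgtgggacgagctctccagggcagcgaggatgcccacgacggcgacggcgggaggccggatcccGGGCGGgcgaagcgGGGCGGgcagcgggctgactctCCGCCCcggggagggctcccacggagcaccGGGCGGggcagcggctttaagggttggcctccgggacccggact
In Irs1 the E-box at position -115 from the start overlapped the insulin response element at -111, and a further element stood at -32, with GC boxes at -227 and -216. In Irs2 the E-box at -44 was followed by an insulin response element at -37, and 1 GC box stood at -85. The Igfbp7 window held 4 GC boxes, at -110, -96, -74 and -44, and neither of the other motifs. Of 32851 RefSeq promoter windows of this length, 6.02% held the E-box, 5.56% the insulin response element and 32.7% the GC box. Windows were found for 9 of the 10 members, 13 in all, and besides the 2 substrates only 1 of the Igfbp2 windows held an E-box, and no other window held the insulin response element. The FOXO site GTAAACA, present in 3.17% of all windows, was in no member window, and TATAAA, present in 12.4%, was in that of Igfbp4 alone. These matches describe letters and were not tested for binding.

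Across the 10 members, none passed the study's cut-off, an absolute log2 fold change above 1 with an unadjusted p below 0.05, against 1.33% of the 18185 genes tested. An unadjusted p below 0.05 was reached by 1 member, Igfbp7, against 3.13% of all genes. No member passed after Benjamini-Hochberg adjustment over all genes, where 0.011% of genes did. Higher means on the log2 scale in PND were found for 7 members, against 52.4% of all genes, and the median log2 fold change of the members was 0.13, against 0.01 over all genes. All 3 PND animals lay above all 3 CON animals for 1 member, where 3.78% of all genes did so and 7.66% were separated in either direction. With 10 members, a count of 1 is too small to be read against these shares. The fits and intervals are from limma on log2(FPKM + 0.1), and every member had an adjusted p = 0.9999.

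**Figure D1:**
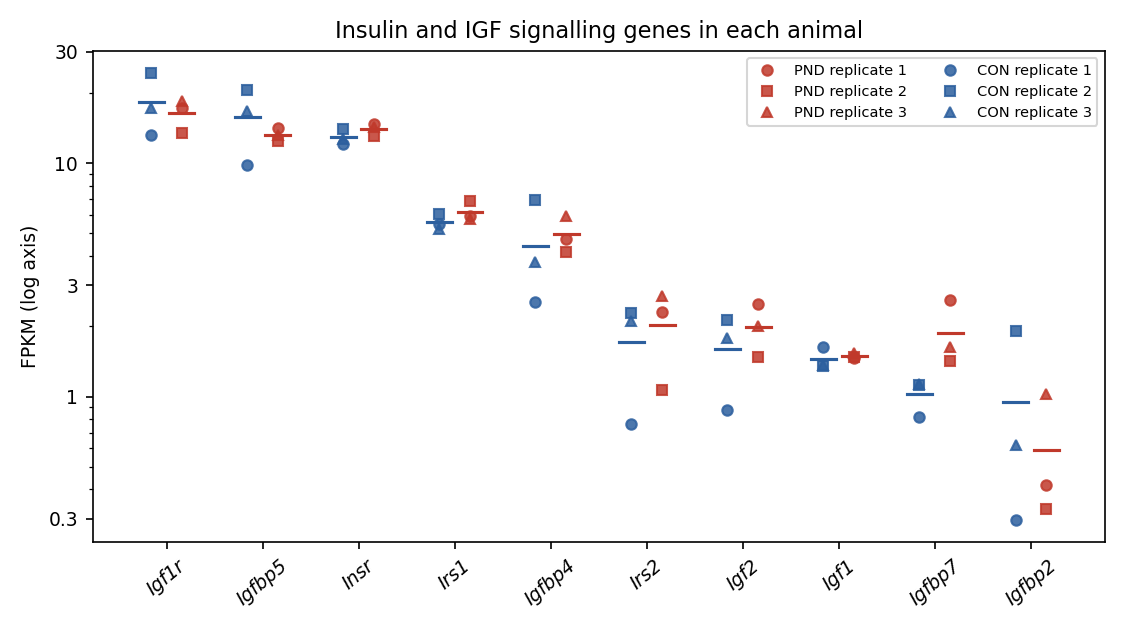
FPKM (log axis) of the 10 members in each of the 6 animals, ordered by mean level. Blue stands for CON and red for PND, symbols mark the replicate number, and bars are group means. The Igfbp7 points of PND, from 1.42 to 2.59, all lie above those of CON, and the other 9 members overlap.

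Igf1, chr10:87858265-87937042 on the plus strand of GRCm38 (ENSMUSG00000020053), encodes insulin-like growth factor 1, a secreted growth factor. Its levels were 1.46, 1.47 and 1.53 FPKM in PND replicates 1 to 3 and 1.62, 1.35 and 1.36 FPKM in CON replicates 1 to 3. The PND animals were close together and lay inside the CON range. Mean levels of 1.49 ± 0.038 (SD, n = 3) in PND and 1.45 ± 0.153 in CON gave a log2 fold change of 0.04 (95% CI -0.42 to 0.51).

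Igf2, chr7:142650766-142666816 on the minus strand (ENSMUSG00000048583), encodes the second insulin-like growth factor, an imprinted gene whose product in the adult brain comes mainly from meninges, vessels and choroid plexus. PND animals had 2.49, 1.47 and 2.00 FPKM and CON animals 0.872, 2.13 and 1.78 FPKM. CON replicate 1 stood lowest, and the groups overlapped. For Igf2 the log2 fold change was 0.36 (95% CI -0.48 to 1.20), and it was 0.00092 without CON replicate 1 and 0.60 without CON replicate 2. The gene shared 62.8% of its exon length with the same-strand gene Gm49394, which was not among the genes measured, so the division of reads between them is not known. Within a sample, the ratio of Igf2 to Igf1 was 1.34 ± 0.354 in PND and 1.14 ± 0.536 in CON. Summed levels of the markers for leptomeningeal and perivascular fibroblasts lay between 17.6 and 28.4 FPKM in PND and between 21.3 and 26.1 FPKM in CON, with 2 of 12 markers higher in PND. Of these the defining marker Col1a1 was at 0.146 to 0.212 FPKM in PND and 0.173 to 0.283 FPKM in CON. Choroid plexus markers summed to 3.05 to 3.79 FPKM in PND and 1.65 to 3.17 FPKM in CON. Of the 5 tested, 4 had higher log2 means in PND, against 52.4% of all genes. Clic6 (mean levels of 1.84 and 1.05 FPKM in PND and CON) and Sostdc1 (0.284 and 0.052 FPKM), named after their values were seen, had all PND animals above all CON animals. Over all genes 3.78% did so. Both had an unadjusted p below 0.05, though not an adjusted one, and Sostdc1 was at most 0.079 FPKM in CON. The others tested overlapped: Kl (0.582 and 0.440 FPKM), Kcnj13 (0.494 and 0.495 FPKM) and F5 (0.136 and 0.142 FPKM). Otx2, below the filter, was at 0.051 and 0.096 FPKM. The defining marker Ttr was at or near 0 in every animal. The part of these cell types in the Igf2 values was not tested.

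Igf1r, chr7:67952827-68233668 on the plus strand (ENSMUSG00000005533), encodes the receptor for IGF1, which also binds IGF2. It had the highest mean level of the 10 members, 17.3 FPKM over the 6 animals. PND animals had 17.2, 13.5 and 18.5 FPKM and CON animals 13.1, 24.3 and 17.3 FPKM. Both the lowest and the highest value belonged to CON. Its log2 fold change was -0.12 (95% CI -0.67 to 0.43), and 0.11 without CON replicate 2.

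Insr, chr8:3122061-3279617 on the minus strand (ENSMUSG00000005534), encodes the insulin receptor. Its levels were 14.7, 13.1 and 14.2 FPKM in PND and 12.0, 14.0 and 12.7 FPKM in CON. It varied little, the highest value being 1.22 times the lowest, and the groups overlapped. Its log2 fold change of 0.12 had the narrowest interval of the 10 members (95% CI -0.15 to 0.39). On the linear scale this interval ran from 0.899-fold to 1.31-fold.

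The ratio of the receptor transcripts within a sample does not depend on scaling between samples. The ratio of Igf1r to Insr was 1.17, 1.03 and 1.30 in PND and 1.09, 1.74 and 1.36 in CON. Igf1r was thus the higher of the pair in all 6 animals. The mean log2 ratio was 0.22 ± 0.169 (SD, n = 3) in PND and 0.45 ± 0.334 in CON, a difference of -0.24 (two-sided exact permutation test, p = 0.4). With 3 animals in each group this test cannot give a p below 0.1.

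Irs1, chr1:82233101-82291416 on the minus strand (ENSMUSG00000055980), encodes a docking protein phosphorylated by both receptors. PND animals had 5.96, 6.86 and 5.74 FPKM and CON animals 5.47, 6.08 and 5.21 FPKM. CON replicate 2 lay above 2 of the PND animals, so the groups overlapped. The log2 fold change was 0.14 (95% CI -0.19 to 0.48). A protein-coding gene on the opposite strand, Gm9747, covers 30.9% of the Irs1 exon length and was not among the genes measured. Whether reads were counted by strand is not given in the sources used here.

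Irs2, chr8:10984681-11008458 on the minus strand (ENSMUSG00000038894), encodes the second main substrate. Its levels were 2.30, 1.07 and 2.70 FPKM in PND and 0.763, 2.29 and 2.11 FPKM in CON. One animal of each group, PND replicate 2 and CON replicate 1, stood at about or below 1 FPKM, while the other 4 lay above 2. This gave a log2 fold change of 0.26 (95% CI -0.87 to 1.40), an interval that includes a change past 2-fold. Without CON replicate 1 the direction reversed, to -0.21. The ratio of Irs1 to Irs2 spread from 2.13 to 7.17 over the 6 animals, while Irs1 itself had a highest value only 1.32 times its lowest. The substrates that share promoter motifs thus differed in their spread between animals.

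Igfbp2, chr1:72824503-72852474 on the plus strand (ENSMUSG00000039323), encodes a binding protein with a preference for IGF2. It was the least abundant member, with 0.419, 0.329 and 1.03 FPKM in PND and 0.297, 1.91 and 0.619 FPKM in CON. CON contained both the lowest and the highest animal, a spread of 6.44 times. The fitted log2 fold change was -0.40 (95% CI -1.91 to 1.11). It reversed to 0.24 without CON replicate 2 and was -0.93 without CON replicate 1. Its PND value rested on an estimated 29 fragments and its CON value on 41. Counting error alone gave a ratio per depth of 0.618 (95% CI 0.370 to 1.02).

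Igfbp4, chr11:99041244-99054392 on the plus strand (ENSMUSG00000017493), encodes a binding protein that inhibits IGF action until it is cleaved by the protease PAPP-A. PND animals had 4.74, 4.16 and 5.96 FPKM and CON animals 2.53, 6.97 and 3.75 FPKM. The PND values fell between the CON extremes. The log2 fold change was 0.27 (95% CI -0.55 to 1.09). Igfbp4 was at 0.65 (95% CI 0.06 to 1.24) without CON replicate 2, and at -0.06 (95% CI -0.77 to 0.65) without CON replicate 1.

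Igfbp5, chr1:72857932-72874884 on the minus strand (ENSMUSG00000026185), encodes the binding protein best conserved in the family and was the most abundant of the 4, at 14.5 FPKM over the 6 animals. It had 14.2, 12.4 and 13.2 FPKM in PND and 9.82, 20.6 and 16.7 FPKM in CON. The CON range enclosed the PND range. The estimate was a log2 fold change of -0.18 (95% CI -0.78 to 0.42). Igfbp5 was at -0.49 (95% CI -0.82 to -0.15) without CON replicate 1, and at 0.05 (95% CI -0.51 to 0.60) without CON replicate 2.

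Igfbp7, chr5:77349240-77408041 on the minus strand (ENSMUSG00000036256), encodes a secreted protein of vessels that binds IGFs weakly and is known as a component of vascular basement membrane. PND animals had 2.59, 1.42 and 1.63 FPKM and CON animals 0.816, 1.13 and 1.13 FPKM. All PND animals lay above all CON animals. The mean level of 1.88 ± 0.626 (SD, n = 3) in PND stood against 1.03 ± 0.181 in CON. On the log2 scale the fold change was 0.78 (SE 0.29, 95% CI 0.11 to 1.45), or 1.72-fold (95% CI 1.08 to 2.74). In limma this passed an unadjusted threshold of 0.05 and not the adjusted one (adjusted p = 0.9999). The values rested on an estimated 60 fragments in PND and 28 in CON, between 7.39 and 27.7 per animal. Their ratio per depth was 1.87, with a 95% interval of 1.18 to 3.05 that covers counting error only. Without PND replicate 1, the highest animal, Igfbp7 was at 0.54 on the log2 scale (95% CI -0.16 to 1.24), and without CON replicate 1 at 0.64 (95% CI -0.09 to 1.38). With voom on estimated fragments Igfbp7 was at 0.81 (95% CI -0.07 to 1.69), so in these fits the interval included 0. An overlap of 85 bases with Polr2b, on the opposite strand, made up 7.03% of the Igfbp7 exon length. Polr2b was among the genes measured, and whether reads were counted by strand is not given in the sources used here. The part of Polr2b reads in the few Igfbp7 fragments is therefore not known.

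Markers of endothelium, the cells that line vessels, were set beside Igfbp7. Their summed level was 36.7 to 46.4 FPKM in PND and 29.4 to 39.1 FPKM in CON, overlapping ranges, with 6 of 10 markers higher in PND, against 52.4% of all genes. The defining marker Cldn5 was at 2.40, 0.984 and 1.43 FPKM in PND and 0.566, 2.43 and 1.18 FPKM in CON. Ly6c1, singled out after its values were seen, was the 1 marker of the 10 with p below 0.05, at 5.79 FPKM in PND and 3.23 FPKM in CON (adjusted p = 0.9999). Tek, singled out in the same way, was the other marker whose groups did not overlap, with PND below, at 1.70 FPKM against 2.24 FPKM. The blood cell markers measured, all haemoglobin genes, summed to 2.76 FPKM in PND replicate 1, the animal with the highest Igfbp7 value. They summed to at most 0.191 FPKM in the other animals. Pericyte and smooth muscle markers summed to 39.9 to 46.0 FPKM in PND and 35.6 to 51.1 FPKM in CON. The part of vessel or blood content in the Igfbp7 values was not tested, and in bulk tissue a difference in the number of cells of a type and a difference in RNA per cell cannot be told apart.

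The sum of the 4 binding proteins was 20.7 ± 2.07 (SD, n = 3) in PND and 22.1 ± 8.59 in CON, in FPKM. Igfbp5 gave 64.6%, 67.7% and 60.6% of the sum in PND and 72.9%, 67.3% and 75.2% in CON. The ranges overlapped at PND replicate 2 and CON replicate 2. With all animals the 4 genes did not share 1 direction: Igfbp4 and Igfbp7 had higher log2 means in PND, and Igfbp2 and Igfbp5 lower ones. Only Igfbp7 reached an unadjusted p below 0.05. Igfbp2 and Igfbp5 both lay on chromosome 1, next to each other. The mixed direction rested on CON replicate 2. Without it all 4 log2 fold changes were above 0: 0.24 for Igfbp2, 0.65 for Igfbp4, 0.05 for Igfbp5 and 0.85 for Igfbp7.

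**Figure D2:**
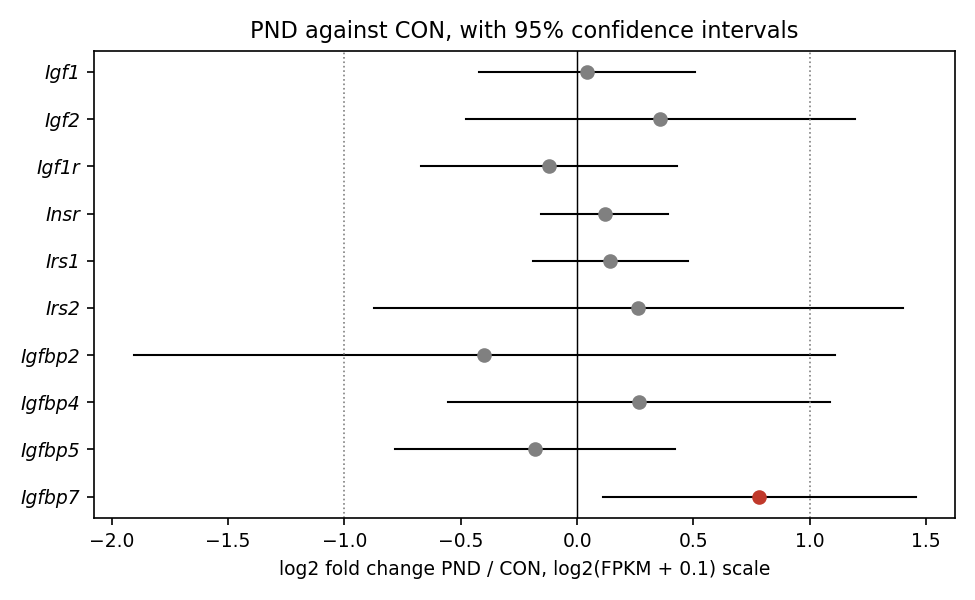
Log2 fold change of PND over CON for the 10 members on the log2(FPKM + 0.1) scale (points) with 95% confidence intervals of limma (lines). Red marks an unadjusted p below 0.05, and dotted lines mark the cut-off of 1 in either direction. The interval of Igfbp7, 0.11 to 1.45, is the 1 that leaves out 0.

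By mean level per exon length over all 6 animals, Igf1r (17.3 FPKM) was followed by Igfbp5 (14.5), Insr (13.4), Irs1 (5.89), Igfbp4 (4.69), Irs2 (1.87), Igf2 (1.79), Igf1 (1.47), Igfbp7 (1.45) and Igfbp2 (0.767). The ranges of neighbours in this order overlapped except for Insr and Irs1. Receptor transcripts were therefore well above those of both growth factors in every animal, the lowest receptor value being 12.0 FPKM and the highest growth factor value 2.49 FPKM.

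CON replicate 1 was the lowest of the 6 animals for 8 of the 10 members, and CON replicate 2 was the highest for 4. These counts were not made over all genes, so they are not read as a trait of the members. For 1 pair of animals in each group, the size of the difference was set beside the GC content of the transcripts. The other pairs are not given here. Of the 7 members with more than 50% GC, 7 were higher in CON replicate 2 than in CON replicate 1, and 6 were higher in PND replicate 3 than in PND replicate 2. Of the 3 members with at most 50% GC, 2 and 3 were higher in the same animals, so the directions alone did not separate high from low GC. Igfbp2, at 62.1% GC, differed by 2.34 on the log2 scale between the CON animals, Irs2 (56.6% GC) by 1.47 and Igfbp4 (55.1%) by 1.42. Igf1, at 38.0% GC, differed by -0.25. Igfbp7 differed by 0.42 despite 58.8% GC. Over all 12323 genes averaging 1 FPKM or more the median of the same difference was 0.04, and it was 1.03 in the decile with the highest GC and -0.35 in the decile with the lowest. With a correction for GC content, Igfbp7 had a log2 fold change of 0.68 (95% CI 0.02 to 1.33), and the intervals of the other 9 members included 0. What part of the spread came with GC content in library making was not tested.

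**Figure D3:**
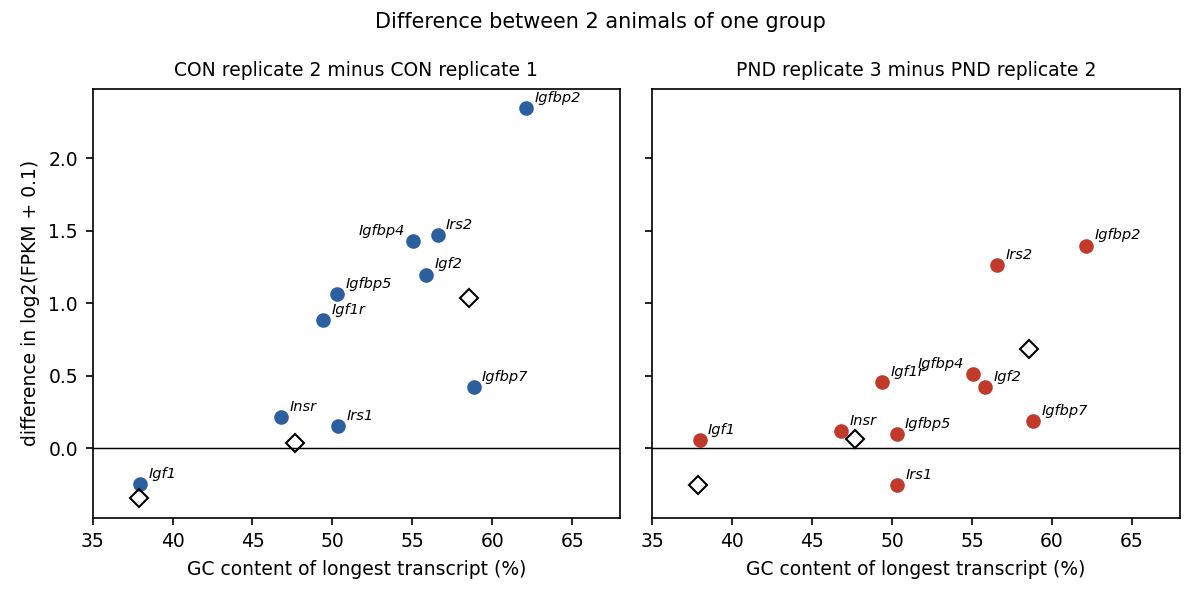
Difference in log2(FPKM + 0.1) between 2 animals of the same group (left, CON replicate 2 minus CON replicate 1, right, PND replicate 3 minus PND replicate 2) against the GC content of the longest transcript, in percent. Filled points are the 10 members and open diamonds the medians of the lowest GC decile, of all genes averaging 1 FPKM or more and of the highest GC decile. Igfbp2, at 62.1% GC, differs most, by 2.34 and 1.40.

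The genes whose pattern over the 6 animals was nearest to each member were sought for the 6 members of at least 0.5 FPKM whose log2 values spanned more than 1. Likeness was the root mean square difference of log2 values after removal of each gene's mean, over 12322 genes or 12323. Igf2 was nearest to Polr1c (0.053) and Gm42372. For Irs2 the nearest were C1qb (0.104), Tns2 and Gpr162. Igfbp4 was closest to Lrrc45 (0.047), Rpl27-ps3 and Pdk2, and Igfbp5 to Zbtb40 (0.070), Gm44758 and Kif21b. Igfbp2 had Rnasek (0.182), Psd and Cdipt. Igfbp7 had Htatip2 (0.156), 2310030G06Rik and Arrdc2. The nearest genes of Igfbp7 were thus farther from it than those of Igf2, Irs2, Igfbp4 and Igfbp5 were from them.

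The wider pathway was taken as 75 further genes listed by role, of which 69 were among the genes measured and 65 passed the filter, a mean level of 0.1 FPKM or more. None passed the cut-off, and 1, Htra1, had an unadjusted p below 0.05, against 1.33% and 3.13% of all genes. Log2 means were higher in PND for 35 and lower for 30, with a median log2 fold change of 0.02. The groups did not overlap for 8 of the 65, 4 with PND above and 4 with PND below, against 7.66% of all genes. The insulin genes Ins1 and Ins2, Igfals, Socs1, Pck1 and G6pc are not analysed here. Insrr, Lrp2, Igfbp1 and Slc2a4, the insulin-responsive glucose transporter, lay below the filter.

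Among binding proteins and proteases, 6 of 9 had higher log2 means in PND. Htra1, a secreted serine protease that can cleave IGF binding proteins and is made mainly by astrocytes in brain, had 24.5, 29.6 and 27.4 FPKM in PND and 19.3, 17.5 and 17.8 FPKM in CON. Every PND animal lay above every CON animal. Its log2 fold change was 0.57 (95% CI 0.31 to 0.84, adjusted p = 0.787). After correction for GC content it was 0.47 (95% CI -0.12 to 1.07). Summed astrocyte markers lay between 338 and 455 FPKM in PND and between 284 and 576 FPKM in CON, with 5 of 8 higher in PND, and their part in the Htra1 values was not tested. Among these markers 3 had an unadjusted p below 0.05 and none an adjusted one. Gfap, at mean levels of 21.8 FPKM in PND and 13.6 FPKM in CON, and Gjb6, at 11.2 and 8.34 FPKM, both named after their values were seen, had all PND animals above all CON animals, as Htra1 did. The defining marker Aqp4 had all PND animals below all CON animals, at 25.6, 21.5 and 24.8 FPKM against 34.5, 26.8 and 31.3 FPKM.

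In the other roles no gene had a p below 0.05. Adaptors and receptor inhibitors had 11 of 17 with higher log2 means in PND, the PI3K, AKT and phosphatase genes 4 of 14, the TSC, mTOR and translation genes 6 of 15, and the GSK3, FOXO and glucose transport genes 7 of 9. Of the most abundant listed genes, those given here had intervals that included 0. Gsk3b, a kinase that AKT inhibits, differed by -0.01 (95% CI -0.29 to 0.27). Pik3r1, the regulatory subunit of PI3 kinase, differed by -0.13 (95% CI -0.38 to 0.11), and Sos1, an exchange factor for RAS, by 0.02 (95% CI -0.27 to 0.31).

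**Figure D4:**
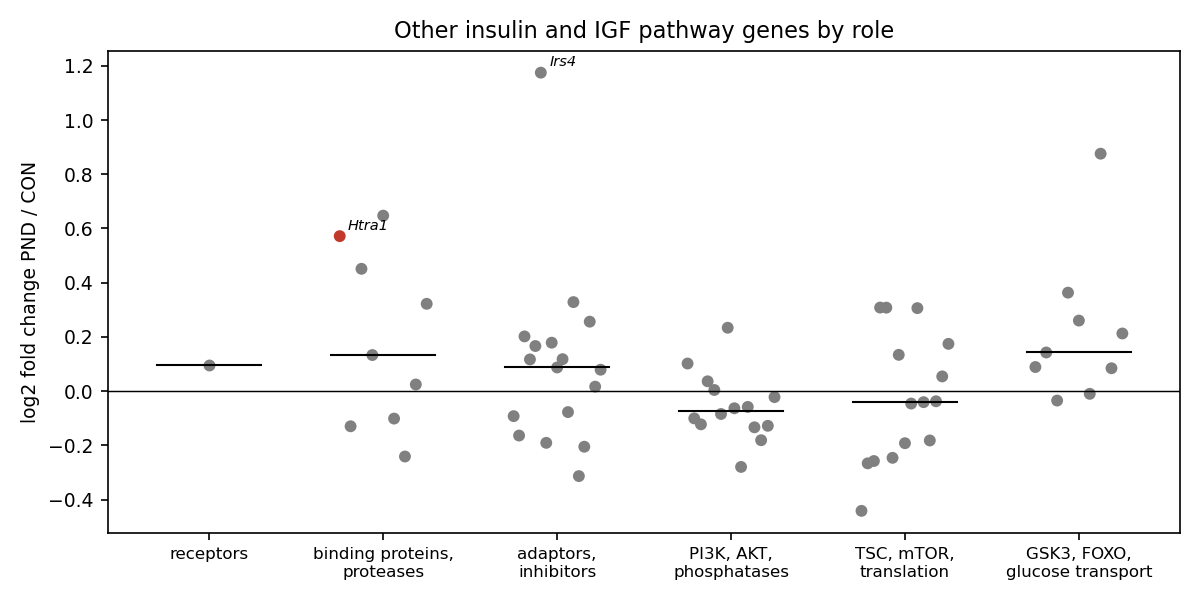
Log2 fold change of PND over CON for the 65 other pathway genes tested, 1 point per gene, grouped by role, with horizontal lines at the median of each role. Red marks Htra1, the gene with an unadjusted p below 0.05, at 0.57. Irs4 lies highest at 1.17.

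Irs4, a further substrate gene and singled out after its values were seen, had the highest fold change of these genes. It was at 0.377, 0.683 and 0.508 FPKM in PND and at 0.382, 0.020 and 0.243 FPKM in CON, so that PND replicate 1 lay just below CON replicate 1. The log2 fold change was 1.17 (95% CI -0.14 to 2.49). The value of CON replicate 2 rested on about 1 estimated fragment. Without CON replicate 1 the Irs4 fold change was larger, as given below.

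**Figure D5:**
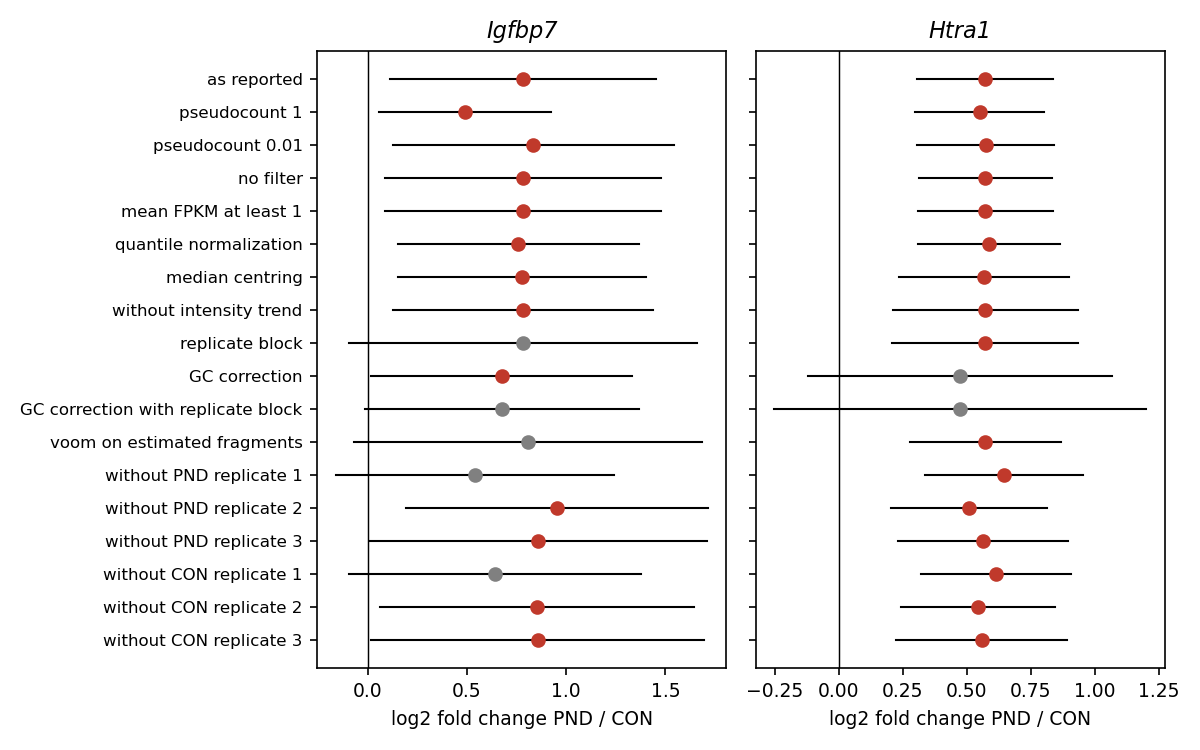
Log2 fold change of PND over CON with 95% confidence intervals for Igfbp7 (left) and Htra1 (right), as reported and under 17 other settings, with red for an unadjusted p below 0.05 and grey otherwise. Igfbp7 stays above 0 throughout, between 0.49 and 0.95, and its interval includes 0 under the replicate block, GC correction with the block, voom, and without PND replicate 1 or CON replicate 1.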

How the data were processed

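Ribosomal RNA was removed by the authors, libraries were sequenced on an Illumina instrument, and reads were filtered with Seqtk and aligned with HISAT2. StringTie counts were scaled by the authors by TMM, and the deposited values were FPKM, 1 column per animal. The submitters' processing notes list Bowtie 0.12.2 and the builds mm8 and mm9 without saying which files they belong to. Which build these FPKM rest on, and the use of strand in counting, are not given in the sources used here, so fragment estimates rest on GRCm38 exon lengths that may differ from those of the authors.

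Groups came from the treatment labels. GENCODE M21 (GRCm38) gave coordinates, exon lengths and GC content, and held 20866 of the 21006 identifiers. Depth was estimated from steps of FPKM times exon length, and only 41.3% to 44.6% of the values between 0.5 and 20.5 fragments were whole to within 0.05, so whole reads were not recovered.

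The groups were compared with limma 3.58.1 (R 4.3.3; lmFit, eBayes with trend). The fit took log2(FPKM + 0.1) of the 18185 genes averaging 0.1 FPKM or more. This scale understates changes of low genes. P-values were adjusted by Benjamini-Hochberg over all genes tested. The fit was also run on simulated counts with planted changes. These held no effect of GC content, so that run does not cover the spread between animals seen here. The members and lists were chosen with earlier results of these data known. Named genes were all members, other pathway genes with p below 0.05 or among the 5 highest means, the 3 nearest patterns, and defining markers. Some genes that this rule names are not reported here. Alternatives covered pseudocount, filter, scaling, GC, block, voom and left-out animals.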

Additional observations from a re-analysis of the deposited data

How the results depend on the processing

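Under 11 alternatives that kept all animals, 106 of 109 member values kept their direction and their side of the unadjusted threshold of 0.05 and none reversed. The others were Igfbp7 with voom on estimated fragments (0.81, 95% CI -0.07 to 1.69), with the replicate block (0.78, 95% CI -0.09 to 1.66) and with GC correction plus the replicate block (0.68, 95% CI -0.01 to 1.37), which left 0 members with p below 0.05. The replicate numbers did not pair the samples: the correlations of same-numbered deviations were -0.049, -0.45 and 0.027. Between differently numbered animals the highest was 0.43 (PND replicate 2 with CON replicate 1). The lowest of these was -0.42 (PND replicate 3 with CON replicate 1). The block thus describes a shared number only. It changed the count of genes past the cut-off from 241 to 226, and of those with an unadjusted p below 0.05 from 569 to 361. Past the cut-off there were 25 genes with a pseudocount of 1 and 59 with a mean of at least 1 FPKM, none of them a member. Of the 241, 153 were higher in PND, against 124 of 240 under quantile normalization.

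With each animal left out in turn, member calls stayed at 0, and members with p below 0.05 numbered 0 to 2. Calls among other pathway genes ranged from 0 to 2 and those with p below 0.05 from 1 to 4. Without CON replicate 1 the 2 calls were Irs4 and Shc2 (1.59 and -1.12), both chosen after their values were seen. Log2 fold changes ranged from -0.00064 (without CON replicate 2) to 0.12 for Igf1, from 0.00092 (without CON replicate 1) to 0.60 (without CON replicate 2) for Igf2, from -0.33 to 0.11 for Igf1r (0.014 without PND replicate 2), from -0.21 (without CON replicate 1) to 0.65 for Irs2, from 0.07 (without CON replicate 1) to 0.18 for Insr, from 0.068 (without PND replicate 2) to 0.20 for Irs1, from -0.93 to 0.24 (without CON replicate 2) for Igfbp2, from -0.062 (without CON replicate 1) to 0.65 (without CON replicate 2) for Igfbp4, from -0.49 to 0.046 (without CON replicate 2) for Igfbp5 and from 0.54 to 0.95 for Igfbp7. The log2 ratio of Igf1r to Insr ranged from -0.40 to -0.07. The causes were not tested. Igfbp2 and Igfbp7 had the fewest estimated fragments of the members, between 28 and 60 per group.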
